A study of Mus musculus with 15 samples.

Results

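H3D livers were set against Nor livers, the comparison that joins every exposure of the study in 1 contrast. H3D mice were male C57BL/6 wild-type offspring of F2 mothers. They received DEN (diethylnitrosamine, a carcinogen that liver cells activate to a DNA-alkylating agent) by injection at 2 weeks of age and later ate a high-fat diet (60% of energy as fat). Females of their maternal line had been fed the same diet between months 1 and 3 of life, and were mated with males on chow. NCD mice were male offspring of the F0 generation that received DEN at the same age and stayed on chow, and Nor mice were male offspring of the F0 generation that received PBS and stayed on chow. H1D and H2D mice, used in a later comparison, were treated as H3D mice but born to F0 and F1 mothers. All mice were killed at 40 weeks (10 months in the sample labels). H3D therefore differs from Nor in DEN, own diet and ancestry together, and from NCD in own diet and ancestry, which cannot be told apart, nor can either be separated from breeding cohort. The comparison used 4 of the 15 libraries, 2 H3D and 2 Nor pools of long RNA, chosen by their column labels, with the 2 NCD pools added to place the DEN effect between them. The pools of a group mixed RNA from 4 to 8 animals, so differences between pools do not measure differences between single animals.

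In rodents DEN given before weaning initiates hepatocytes that later grow out as foci and tumours, and a high-fat diet is known to promote that growth. Adult mouse hepatocytes make most plasma proteins, burn fatty acids in mitochondria and peroxisomes, clear drugs through cytochrome P450 enzymes near the central vein, and in males express a growth-hormone-dependent set of genes that includes the major urinary proteins. Inflammation makes hepatocytes secrete acute phase proteins under the control of interleukin signals, and tumours often regain fetal genes.

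Levels of mRNA are in FPKM, which counts sequenced fragments relative to transcript length and library size. Transcripts were summed per gene, and the 11557 genes that reached 1 FPKM in 2 or more of the 10 long RNA libraries were tested on log2(FPKM + 0.5). The number of reads is not given. Values of low genes fall in whole steps, from which the H3D libraries held 1.16 and 1.24 times, and the NCD libraries 1.15 and 1.08 times, the fragments of Nor replicate 1, and Nor replicate 2 held 0.983 times as many. The FPKM of all genes summed to 568823 and 582521 in H3D, 676268 and 660821 in NCD, and 784456 and 772100 in Nor. On the first principal component, which held 64.7% of the variance, scores were 40.9 and 38.4 for H3D, -9.83 and -13.1 for NCD, and -69.1 and -60.2 for Nor. Hepatocyte markers were high in every pool, with albumin at 58719.7 and 46962 FPKM in H3D, 46561 and 43459 FPKM in NCD, and 40588 and 46378 FPKM in Nor. Single pools stood apart for some genes. H3D replicate 2 had more neutrophil and erythroid RNA than H3D replicate 1, Nor replicate 1 had more major urinary protein RNA than Nor replicate 2, and values of both pools are given below.

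H3D livers differed from Nor livers in a large share of their mRNAs. With limma's moderated test over 5 groups and a Benjamini-Hochberg adjusted p below 0.05 as a call, 5436 of 11557 genes (47.0%) were called between H3D and Nor, 2563 higher (22.2%) and 2873 lower (24.9%) in H3D. The step that DEN made in chow-fed mice, NCD against Nor, called 1609 genes (13.9%), 916 higher (7.93%) and 693 lower (6.0%). The further step, H3D against NCD, called 1724 genes (14.9%), 583 higher (5.04%) and 1141 lower (9.87%). The median log2 change of all genes between H3D and Nor was -0.03. When libraries were scaled to equal FPKM sums, that median moved to 0.36 and the calls to 5642 higher and 1194 lower. On that scale the DEN step gave 1654 higher and 96 lower genes and the H3D step 1967 higher and 671 lower, and quantile scaling gave 469 higher and 183 lower for the DEN step and 817 higher and 921 lower for the H3D step. The split between higher and lower calls thus depends on the scale, so statements on direction below were checked on that scale as well.

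Each gene was then sorted by which of the 3 differences was called. A gene was deepened when DEN moved it and H3D moved it further the same way, reversed when H3D moved it back against the DEN step, and added when the DEN step was not called but H3D differed from both NCD and Nor in 1 direction. It was kept when the DEN step and the whole difference were called but the H3D step was not, and stepwise when only the whole difference between H3D and Nor was called. By this rule 618 genes were deepened (5.35% of genes tested), 206 higher (1.78%) and 412 lower (3.56%), and 25 were reversed (0.216%), 7 raised (0.0606%) and 18 lowered (0.156%) by the H3D step. Another 1052 were added (9.1%), 355 higher (3.07%) and 697 lower (6.03%). A further 924 were kept (8.0%), 668 higher (5.78%) and 256 lower (2.22%), and 2836 were stepwise (24.5%), 1329 higher and 1507 lower. The bar chart of classes shows these counts. Of the 1609 genes that DEN moved in chow-fed mice, 57.4% were kept, 38.4% deepened and 1.55% reversed in H3D. The 2 steps share the NCD pools and the 3 differences share all pools, so the classes are not independent of each other. They also rest on single pools: leaving out 1 pool of H3D, NCD or Nor moved the deepened count to between 39 (without NCD replicate 1) and 711 (without Nor replicate 2), with 50 without NCD replicate 2, 342 and 378 without H3D replicates 1 and 2, and 281 without Nor replicate 1. It moved the added count to 532 and 563 (without H3D replicates 1 and 2), 662 and 438 (without NCD replicates 1 and 2) and 1707 (without Nor replicate 1), and the kept count to 212 and 344 (without NCD replicates 1 and 2), 411 and 1472 (without Nor replicates 1 and 2). Of the 67 deepened genes named by rule, 4 kept both step calls under every setting tried (Lcn2, Cp, Mpeg1 and Fitm2), as did 4 of the 11 reversed ones (Fkbp5, Vil1, Adgrv1 and Krt23). In most other deepened falls named here the DEN step was the call that was lost. The same held for the 39 gene lists below, whose count of calls moved by over 1.5 times when 1 library was left out in 36 lists for the DEN step, 27 for the H3D step and 6 for H3D against Nor. The whole difference was sturdier for single genes too, with 162 of 176 named calls between H3D and Nor kept in all gene-level settings that included the gene.

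**Figure D1:**
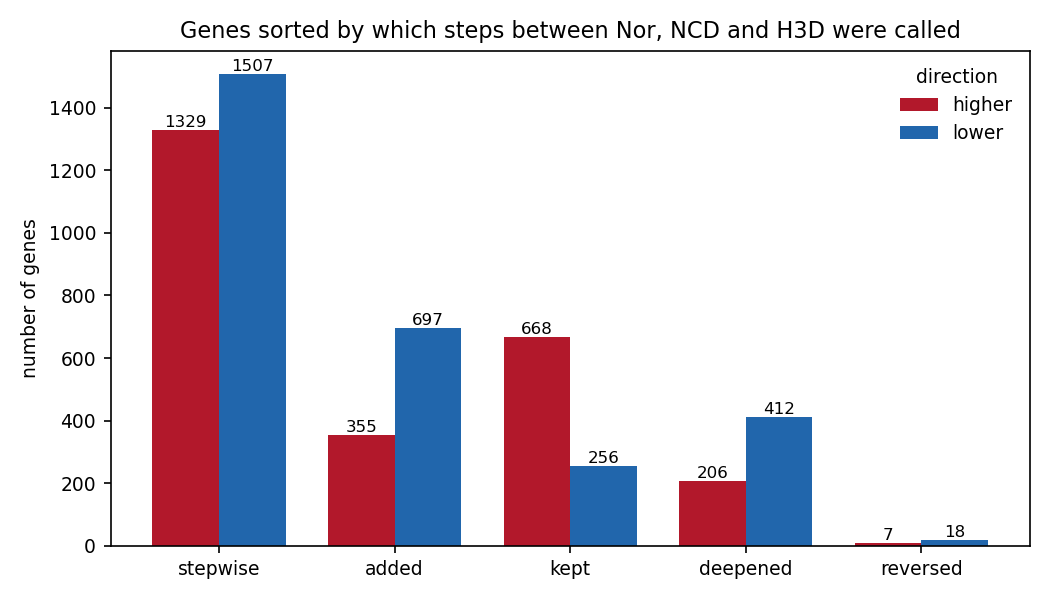
Number of genes (vertical axis) in each class (horizontal axis), with genes higher in H3D in red and lower in blue (for the reversed class, raised or lowered by the H3D step). The stepwise class is the largest with 1329 and 1507 genes, and the reversed class the smallest with 7 and 18.

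The deepened rises named first are Lcn2, Tff3 and Cyp17a1. Lcn2 (chr2:32384637-32387739 on GRCm38), which encodes the iron-siderophore binding protein lipocalin 2, measured 2648 and 2471 FPKM in H3D, 199 and 280.4 FPKM in NCD, and 4.05 and 4.23 FPKM in Nor. The 3 groups did not overlap, and the log2 change between H3D and Nor was 9.11 ± 0.21 (limma standard error; adjusted p = 8.23e-07), of which DEN alone gave 5.67 and the H3D step 3.43. Tff3, a secreted mucosal repair peptide, measured 665 and 612 FPKM in H3D, 228 and 294 FPKM in NCD, and 3.84 and 2.97 FPKM in Nor. Cyp17a1, a steroid 17-hydroxylase, measured 96.3 and 114 FPKM in H3D, 16.6 and 11.5 FPKM in NCD, and 2.74 and 3.94 FPKM in Nor. Both lay highest in H3D, with no overlap between groups. In Cyp17a1 the larger part of the change came with the H3D step (2.88 ± 0.27, adjusted p = 0.000981), beside 1.92 ± 0.27 for NCD against Nor.

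Other deepened rises touched lipid handling, leptin signalling and pentraxins. Lpl, the lipase that releases fatty acids from lipoproteins and is low in the adult liver, measured 73 and 97.3 FPKM in H3D, 42.7 and 30.7 FPKM in NCD, and 2.85 and 4.99 FPKM in Nor. Apoa4, an apolipoprotein that fat intake induces, measured 1558 and 2314 FPKM in H3D, 1027 and 813 FPKM in NCD, and 43.3 and 45 FPKM in Nor. Lepr, the leptin receptor, measured 15.8 and 11.5 FPKM in H3D, 5.00 and 2.35 FPKM in NCD, and 0.763 and 1.03 FPKM in Nor. In all 3 genes both H3D pools lay above both NCD pools, which lay above both Nor pools. Apcs, the pentraxin serum amyloid P component, measured 759 and 1385 FPKM in H3D, 207 and 140.3 FPKM in NCD, and 56.9 and 86.9 FPKM in Nor. Fgf21, a hormone of the fasting liver, measured 23.3 and 29.2 FPKM in H3D, 8.37 and 8.48 FPKM in NCD, and 2.25 and 4.57 FPKM in Nor. The axonemal dynein gene Dnaic1 measured 9.66 and 9.64 FPKM in H3D, 1.33 and 2.07 FPKM in NCD, and 0.595 and 0.288 FPKM in Nor, with most of the change in the H3D step (2.23 of 3.45 on the log2 scale).

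Deepened falls were the more frequent direction on the deposited scale, and 5 of the 19 pericentral and Wnt target genes tested were in that class. Cyp2e1 (chr7:140763819-140774990), the ethanol-inducible P450 that also activates DEN, measured 319 and 357 FPKM in H3D, 2072 and 2208 FPKM in NCD, and 4977 and 4805 FPKM in Nor. Its log2 change was -3.85 ± 0.22 (adjusted p = 2.3e-05), with -1.19 in the DEN step and -2.66 in the H3D step. Glul, the glutamine synthetase of the last pericentral cell layer, measured 97.9 and 93.3 FPKM in H3D, 260.2 and 241 FPKM in NCD, and 432 and 396 FPKM in Nor. Oat, ornithine aminotransferase of the same zone, measured 35.6 and 31.2 FPKM in H3D, 185 and 183 FPKM in NCD, and 363 and 534 FPKM in Nor. Slc1a2, a pericentral glutamate transporter, measured 8.93 and 7.60 FPKM in H3D, 31.7 and 31.1 FPKM in NCD, and 68.7 and 62.5 FPKM in Nor. In each of these 4 genes the pools of the 3 groups stood in separate ranges, with H3D lowest. Of 19 pericentral and Wnt target genes tested, 13 fell and 2 rose between H3D and Nor (median log2 change -1.07), with 5 fallen in the DEN step (1 and 0 when NCD replicates 1 and 2 were left out in turn, and 2 when Nor replicate 1 was) and 10 in the H3D step. The falls included 2 Wnt targets that are not metabolic enzymes. Axin2, a feedback inhibitor of the pathway, measured 0.816 and 0.970 FPKM in H3D, 1.84 and 1.81 FPKM in NCD, and 1.44 and 3.47 FPKM in Nor and was stepwise. Notum, a secreted Wnt inhibitor, measured 1.43 and 1.14 FPKM in H3D, 5.82 and 4.31 FPKM in NCD, and 9.05 and 6.43 FPKM in Nor and was added. These 2 genes were picked from the list after their values were seen and do not stand for its other members. Axin2 lay near the filter of 1 FPKM in H3D, and its NCD pools lay within the range of the Nor pools. Wnt signalling itself was not measured.

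Genes of fatty acid oxidation were lower in H3D than in NCD and in NCD than in Nor. Acsl1 (chr8:46471037-46536051), which activates long-chain fatty acids to acyl-CoA, measured 69.9 and 68.8 FPKM in H3D, 245 and 307 FPKM in NCD, and 524 and 504 FPKM in Nor. The groups did not overlap, and the log2 change was -2.88 ± 0.14 (adjusted p = 1.37e-05), of which -0.90 came with DEN and -1.98 with the H3D step. Slc25a20, the carnitine-acylcarnitine carrier of the inner mitochondrial membrane, measured 27.4 and 30.6 FPKM in H3D, 44 and 49.5 FPKM in NCD, and 69.7 and 79.4 FPKM in Nor. Eci1, an isomerase of unsaturated fatty acid oxidation, measured 41.3 and 45.3 FPKM in H3D, 79.9 and 86.2 FPKM in NCD, and 115 and 129.5 FPKM in Nor. Ppara, the nuclear receptor that drives this programme, measured 31.3 and 28 FPKM in H3D, 39.4 and 50.0 FPKM in NCD, and 58.6 and 71.1 FPKM in Nor. All 4 were deepened. Acaa1b, a peroxisomal thiolase, was added, at 56.4 and 77.4 FPKM in H3D, 494 and 525 FPKM in NCD, and 586 and 984 FPKM in Nor. Cpt1a, which controls entry of fatty acids into mitochondria, was not called (log2 change -0.27 ± 0.16, adjusted p = 0.209). Of 32 oxidation and ketogenesis genes tested, 23 fell and 2 rose between H3D and Nor (median -1.09), 18 fell and 2 rose in the DEN step, 19 fell and 2 rose in the H3D step, and 17 were deepened. The falls in the DEN step went to 0 and 2 without NCD replicates 1 and 2, to 7 and 6 without Nor replicates 1 and 2 and to 11 without either H2D replicate. Those in the H3D step went to 8 without H3D replicate 1 and to 12 and 6 without NCD replicates 1 and 2.

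Genes of the respiratory chain fell beside them. All 32 nuclear-encoded respiratory chain genes tested fell between H3D and Nor (median log2 change -0.95), 21 fell in the DEN step, 30 in the H3D step, and 21 were deepened. Ndufb3, a subunit of complex I, measured 42.4 and 43.4 FPKM in H3D, 78.5 and 72 FPKM in NCD, and 114 and 97.4 FPKM in Nor. Cyc1, cytochrome c1 of complex III, measured 64.3 and 70.8 FPKM in H3D, 106 and 105 FPKM in NCD, and 154 and 143 FPKM in Nor. Of 13 mitochondrially encoded genes, 12 fell between H3D and Nor (median -1.15). The complex IV subunit mt-Co1 measured 6701 and 7316 FPKM in H3D, 12792 and 12743 FPKM in NCD, and 17192 and 18151 FPKM in Nor. With equal FPKM sums 30 of the 32 nuclear genes and 10 of the 13 mitochondrial genes still fell between H3D and Nor, but 0 of the 32 and 0 of the 13 fell in the DEN step, and the DEN falls in the oxidation list went to 2. The DEN part of these deepened falls therefore depends on the FPKM scale, while in the H3D step 20 of the 32, 4 of the 13 and 12 of the 32 oxidation genes fell with equal FPKM sums. The DEN falls of the nuclear genes also went to 0 without NCD replicate 1, NCD replicate 2 or Nor replicate 1, to 12 without Nor replicate 2 and to 13 without H2D replicate 2. Their H3D step went to 18 without H3D replicate 1 and to 15 and 11 without NCD replicates 1 and 2.

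Genes of nitrogen and aldehyde metabolism were mostly lower in H3D than in Nor. Of 30 urea cycle and amino acid breakdown genes tested, 22 fell and 1 rose between H3D and Nor (median -1.11). In the DEN step 11 of them fell, and in the H3D step 16. Both counts moved widely when 1 library was left out. The step medians then lay between -0.59 and -0.55 for DEN and between -0.62 and -0.54 for H3D. Otc, ornithine transcarbamylase of the urea cycle, measured 74.5 and 87.6 FPKM in H3D, 158 and 177 FPKM in NCD, and 253 and 233 FPKM in Nor. Asl, argininosuccinate lyase, measured 81.3 and 89.8 FPKM in H3D, 181 and 187 FPKM in NCD, and 314 and 335 FPKM in Nor. The DEN step of Otc and Asl was not called with equal FPKM sums or quantile scaling. Of 19 alcohol and aldehyde dehydrogenases tested, 16 fell and 3 rose (median -1.45). In the DEN step 8 fell and 3 rose, and in the H3D step 14 fell and 1 rose. The DEN count moved widely too when 1 library was left out, with a DEN step median between -0.54 and -0.42. Aldh2, the mitochondrial acetaldehyde dehydrogenase, measured 511 and 504 FPKM in H3D, 1069.9 and 1119 FPKM in NCD, and 1411 and 1573 FPKM in Nor. Its log2 change was -1.55 ± 0.12 (adjusted p = 7.86e-05), and the gene was added, since the DEN step was not called (-0.44 ± 0.12, adjusted p = 0.0502). Both lists fell on the scale of equal FPKM sums too, with 20 and 15 members lower in H3D than in Nor.

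**Figure D2:**
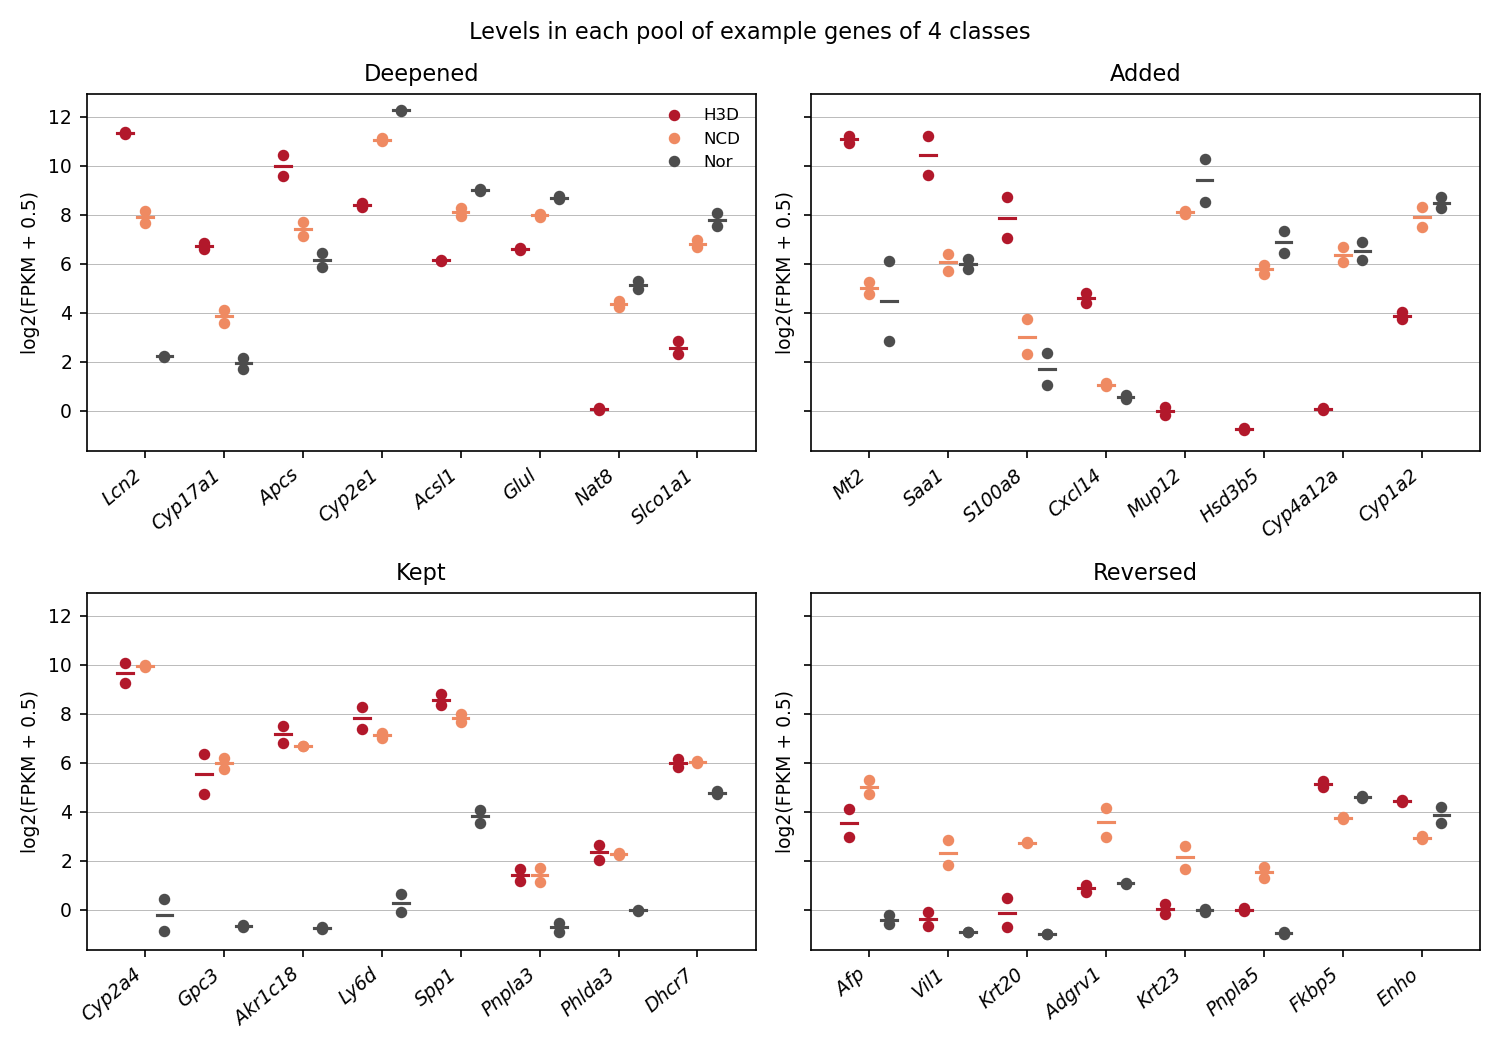
Levels as log2(FPKM + 0.5) (vertical axis) of 8 genes each of the deepened, added, kept and reversed classes (horizontal axis), with each dot a pool, each dash the mean of 2 pools, and H3D, NCD and Nor in that order. Deepened genes stand apart from Nor in NCD and farther in H3D, and added genes stand apart in H3D. Kept genes have no call between H3D and NCD, whose pools overlap in some and not in others (Ly6d, Spp1 and Akr1c18, with H3D higher). Reversed genes have NCD farther from Nor than H3D or on its other side.

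Male-biased liver genes were lower in H3D, mostly as added falls. Of 28 tested, 26 fell and 0 rose between H3D and Nor (median log2 change -4.28), 25 fell in the H3D step, 3 fell in the DEN step, and 22 were of the added class. The number fallen in the DEN step was 1 with equal FPKM sums, 0 with quantile scaling or without NCD replicate 1, 1 without NCD replicate 2 or Nor replicate 1, 5 without either H2D replicate and 10 without Nor replicate 2. That in the H3D step stayed between 21 and 26. Hsd3b5 (chr3:98618636-98645534), a steroid reductase of male liver, measured 0.0720 and 0.113 FPKM in H3D, 47.6 and 61.3 FPKM in NCD, and 159 and 86.7 FPKM in Nor. Both H3D pools lay far under every other pool, with a log2 change of -7.64 ± 0.34 (adjusted p = 1.13e-05). Cyp4a12a, a male-specific fatty acid hydroxylase, measured 0.587 and 0.524 FPKM in H3D, 65.8 and 101 FPKM in NCD, and 70.0 and 116 FPKM in Nor. Elovl3, a fatty acid elongase that androgens raise, measured 0.953 and 2.21 FPKM in H3D, 99.8 and 218 FPKM in NCD, and 44.2 and 578 FPKM in Nor. The DEN step of these 3 genes was not called (adjusted p = 0.0673, 0.768 and 0.95).

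The major urinary proteins, pheromone carriers that the male liver secretes in bulk, made up 5 of the 6 largest falls named by rule. Mup12 (chr4:60737381-60741416) measured 0.372 and 0.610 FPKM in H3D, 262 and 285 FPKM in NCD, and 1227 and 369 FPKM in Nor, a log2 change of -9.42 ± 0.52 (adjusted p = 2.1e-05). Mup7, the most abundant of those named, measured 113 and 93.8 FPKM in H3D, 6651 and 6854 FPKM in NCD, and 24854 and 7091 FPKM in Nor. Mup genes are near-identical copies on chromosome 4, so reads may have been divided among them and single values are uncertain, but in all 5 (Mup12, Mup1, Mup11, Mup15 and Mup7) both H3D pools lay under every NCD and Nor pool. The family summed with the other male-biased genes to 5831 and 8391 FPKM in H3D, 33638 and 36797 FPKM in NCD, and 63812 and 32592 FPKM in Nor. A transporter and 2 conjugating enzymes outside the family were deepened. Nat8, an N-acetyltransferase, measured 0.574 and 0.505 FPKM in H3D, 21.6 and 18.2 FPKM in NCD, and 31 and 39 FPKM in Nor. Slco1a1, an organic anion uptake transporter, measured 4.45 and 6.64 FPKM in H3D, 101 and 123 FPKM in NCD, and 268 and 183 FPKM in Nor. Sult2a8, a bile acid sulfotransferase, measured 21.2 and 21.7 FPKM in H3D, 373 and 334 FPKM in NCD, and 776 and 594 FPKM in Nor. In each, both H3D pools lay under the NCD pools, and the DEN step was lost under 5 or more of the leave-one-out fits.

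Female-biased genes did not mirror this pattern. Of 29 tested, 15 rose and 3 fell between H3D and Nor (median 2.01), but 8 rose already in the DEN step (4 when NCD replicate 1 was left out, 13 when Nor replicate 2 was) and 2 rose and 3 fell in the H3D step. Cyp2a4, a female-biased steroid hydroxylase, measured 1059 and 609.6 FPKM in H3D, 1007 and 958 FPKM in NCD, and 0.0485 and 0.862 FPKM in Nor and was kept, with a log2 change of 9.86 ± 0.39. Cyp2b9 was kept as well, at 59.3 and 32.1 FPKM in H3D, 72.7 and 44.5 FPKM in NCD, and 3.71 and 3.29 FPKM in Nor. Cyp2b10, which the nuclear receptor CAR induces, went against its list and was listed at 0 in 1 H3D pool, with 0 and 0.0186 FPKM in H3D, 4.24 and 3.33 FPKM in NCD, and 4.31 and 10.6 FPKM in Nor. Of the 29, 14 were under 1 FPKM in both Nor pools and passed the filter through other groups.

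**Figure D3:**
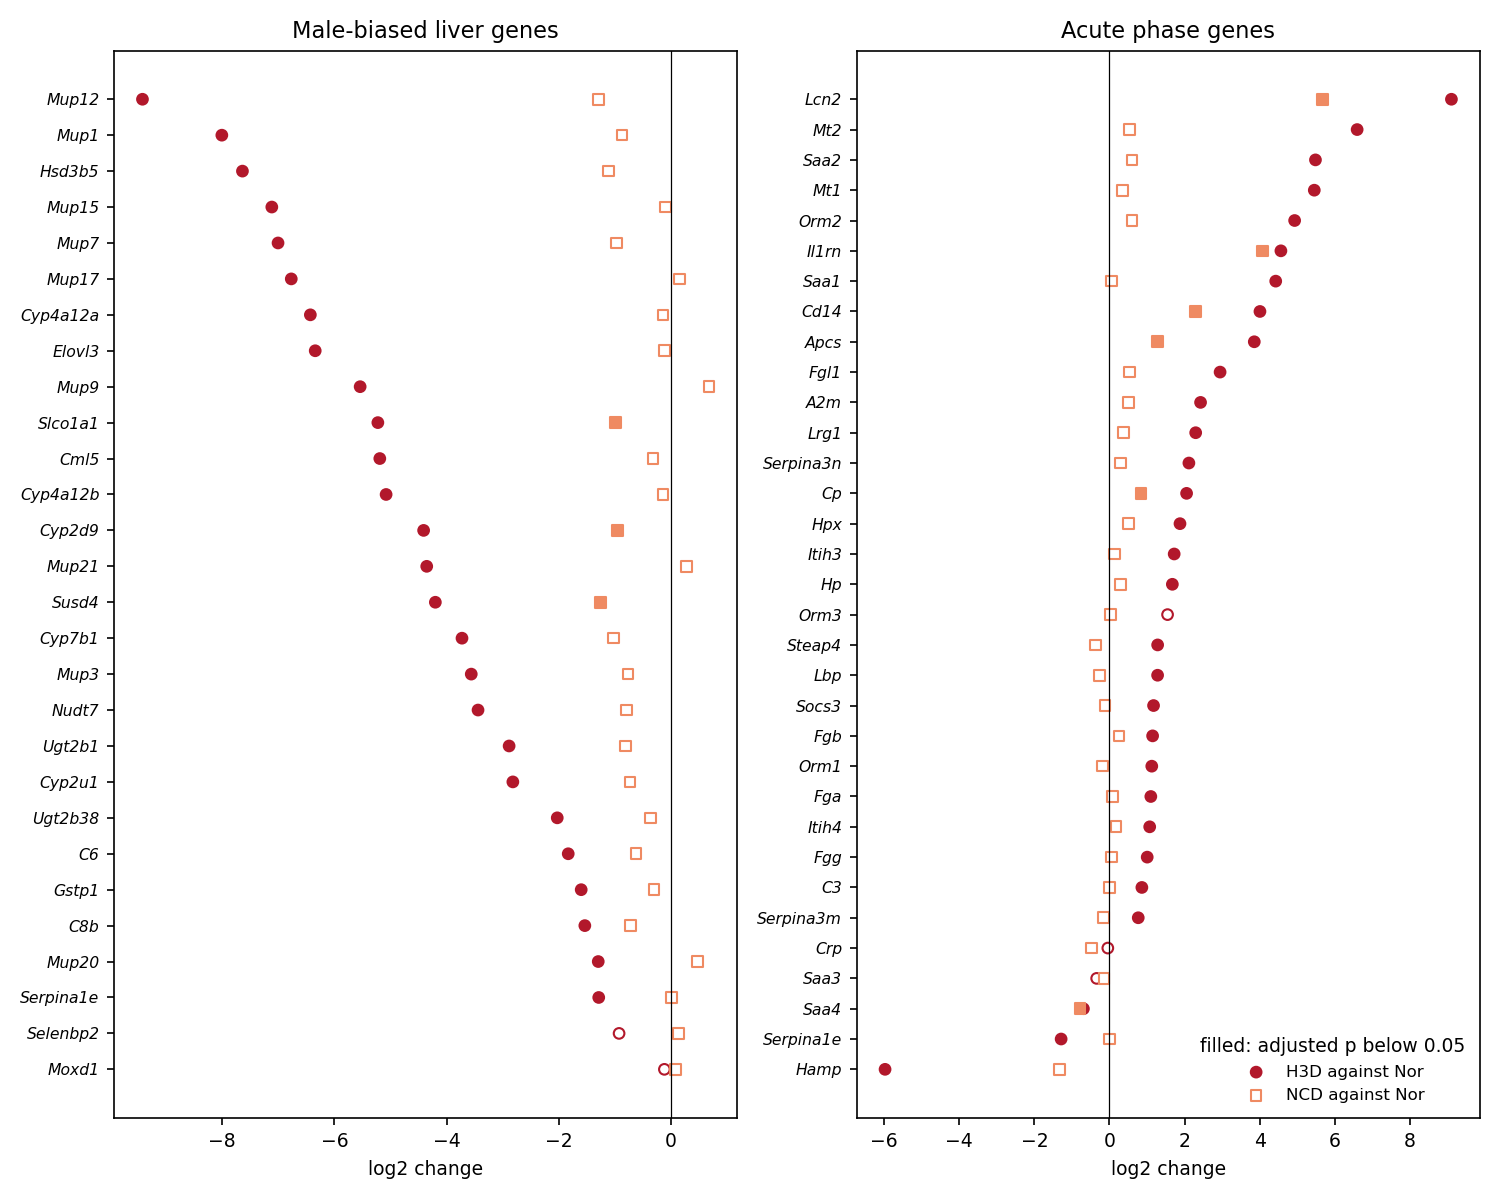
Log2 change (horizontal axis) of every tested member of the male-biased and acute phase lists (vertical axis) for H3D against Nor (circles) and NCD against Nor (squares), filled where the adjusted p was below 0.05. Male-biased genes have 26 filled circles and 3 filled squares, all to the left. Acute phase genes have 27 filled circles to the right and 3 to the left. Of their squares, 5 are filled to the right and 1 to the left.

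Acute phase genes were higher in H3D, mostly as added rises. Of 33 tested, 27 rose and 3 fell between H3D and Nor (median log2 change 1.67), whereas 5 rose and 1 fell in the DEN step (11 and 0 with equal FPKM sums). In the H3D step 24 rose and 2 fell, and 22 of the 33 were of the added class. Saa1 and Saa2, the serum amyloid A proteins, differed in size between the 2 H3D pools but lay above all others. Saa1 measured 788 and 2378 FPKM in H3D, 51 and 84.3 FPKM in NCD, and 55 and 72.5 FPKM in Nor. Itih3, an inter-alpha-trypsin inhibitor chain, measured 736 and 781 FPKM in H3D, 245 and 256 FPKM in NCD, and 241 and 218 FPKM in Nor, and Lrg1, a leucine-rich glycoprotein, 952 and 793 FPKM in H3D, 228 and 230.1 FPKM in NCD, and 176 and 177 FPKM in Nor. Both had tight pools and log2 changes of 1.72 ± 0.09 and 2.30 ± 0.11 (adjusted p = 2.01e-05 and 1.56e-05). Mt2 (chr8:94172618-94173567), a metal-binding metallothionein that glucocorticoids and inflammation induce, measured 1956 and 2356 FPKM in H3D, 37.3 and 26.9 FPKM in NCD, and 6.66 and 68.4 FPKM in Nor. The Nor pools of Mt2 differed widely from each other and both were far under H3D. Cp, the copper oxidase ceruloplasmin, was deepened, at 1655 and 1553 FPKM in H3D, 699.7 and 677 FPKM in NCD, and 377 and 394 FPKM in Nor. Hamp, the iron hormone hepcidin, an acute phase gene in mice, went the other way, at 142 and 42 FPKM in H3D, 1987 and 1912 FPKM in NCD, and 6165 and 3900.3 FPKM in Nor (log2 change -5.98 ± 0.49, adjusted p = 8.88e-05), and was picked after its values were seen.

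The 250 bases upstream of 3 acute phase genes are shown because their promoters held letters searched for, namely TTCNNNGAA, a core to which STAT factors bind, and a core of NF-kB sites (GGG, any 2 bases, then TTTCC), on either strand. Sequences are from RefSeq on GRCm38.p6, 5′ to 3′ on the gene's strand, with matches in capitals.
Apcs, chr1:172895055-172895304, minus strand: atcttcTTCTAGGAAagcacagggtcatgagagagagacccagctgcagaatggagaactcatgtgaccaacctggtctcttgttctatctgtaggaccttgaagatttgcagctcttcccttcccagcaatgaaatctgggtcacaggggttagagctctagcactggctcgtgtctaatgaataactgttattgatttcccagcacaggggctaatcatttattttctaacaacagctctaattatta
Steap4, chr5:7960222-7960471, plus strand: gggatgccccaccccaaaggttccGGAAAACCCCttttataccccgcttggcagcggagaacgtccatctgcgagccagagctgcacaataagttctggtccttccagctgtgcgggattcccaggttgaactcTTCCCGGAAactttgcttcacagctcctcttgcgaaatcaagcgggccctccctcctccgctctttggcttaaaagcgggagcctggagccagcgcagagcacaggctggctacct
Serpina3n, chr12:104406458-104406707, plus strand: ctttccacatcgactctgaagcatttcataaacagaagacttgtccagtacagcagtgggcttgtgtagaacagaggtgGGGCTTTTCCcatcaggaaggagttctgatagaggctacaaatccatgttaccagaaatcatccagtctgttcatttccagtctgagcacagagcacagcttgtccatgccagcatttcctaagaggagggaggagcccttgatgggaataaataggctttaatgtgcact
Steap4 and Serpina3n were picked after their values were seen. Steap4, a metalloreductase, measured 171 and 182 FPKM in H3D, 58.9 and 52.6 FPKM in NCD, and 101 and 51.4 FPKM in Nor, and Serpina3n, a serine protease inhibitor, 581 and 685 FPKM in H3D, 175 and 181 FPKM in NCD, and 158 and 134 FPKM in Nor. Of the 27 acute phase genes that rose, 20 had a promoter in the table. In windows of 250 bases before to 50 after the start, 6 of the 20 (30%) held TTCNNNGAA and 3 (15%) held the NF-kB core. Of the 3 acute phase genes that fell, 1 (33.3%) held TTCNNNGAA and 0 the NF-kB core, beside 755 (8.53%) and 183 (2.07%) of the 8847 tested genes with a promoter. The 2 patterns did not overlap each other in the promoters shown. These shares describe letters and no binding was measured.

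Neutrophil RNA appeared in H3D together with the acute phase genes. Of 18 neutrophil and myeloid granule markers, 15 were tested, 14 rose between H3D and Nor and 14 rose in the H3D step (median log2 change between H3D and Nor 3.77), with 1 (Lcn2, which hepatocytes also make) in the DEN step. S100a8, a calprotectin subunit, measured 132 and 418 FPKM in H3D, 13 and 4.40 FPKM in NCD, and 1.58 and 4.59 FPKM in Nor. Prtn3, proteinase 3 of the granules, measured 31.1 and 47.3 FPKM in H3D, 3.93 and 1.04 FPKM in NCD, and 0.0937 and 0.368 FPKM in Nor. Ngp, a granule protein of immature neutrophils, measured 13.4 and 41.9 FPKM in H3D, 0.260 and 0.138 FPKM in NCD, and 0 and 0.0753 FPKM in Nor. Both H3D pools lay above every NCD and Nor pool for these 3, and H3D replicate 2 was the higher of the H3D pools. Without that replicate the H3D step of S100a8 was no longer called, and the number of list members risen in the H3D step went to 9 without it and to 5 without NCD replicate 2. The list summed to 3001 and 3469.7 FPKM in H3D, 237 and 298 FPKM in NCD, and 12.7 and 22.4 FPKM in Nor, most of it Lcn2 in H3D and NCD. Of the 15, 11 were under 1 FPKM in both Nor pools, and Mpo was listed at 0 in both. In bulk liver RNA, more cells of a type and more RNA per cell cannot be told apart, and the part of these markers in the rise of the acute phase genes was not tested.

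Drug metabolism and bile acid synthesis were lowered mainly in the H3D step. Of 28 xenobiotic genes of the CAR and PXR type tested, 19 fell and 6 rose between H3D and Nor (median log2 change -1.71). In the H3D step 17 fell, and in the DEN step 6 fell and 4 rose (0 fell without either NCD replicate, 2 without Nor replicate 1 and 2 with equal FPKM sums). Cyp3a11, the main drug-metabolising P450 of mouse liver, measured 121 and 365 FPKM in H3D, 1264 and 1390.4 FPKM in NCD, and 1899 and 2558 FPKM in Nor. Cyp1a2, an aryl-hydrocarbon receptor target of the pericentral zone, measured 15.9 and 12.7 FPKM in H3D, 179.6 and 317 FPKM in NCD, and 417 and 308 FPKM in Nor. Ces2a, a carboxylesterase, measured 9.18 and 14 FPKM in H3D, 112 and 133 FPKM in NCD, and 262 and 224 FPKM in Nor. In these genes all H3D pools lay under all NCD pools. Nr1i3, the receptor CAR itself, was deepened, at 7.64 and 9.69 FPKM in H3D, 25 and 27.7 FPKM in NCD, and 47.2 and 63.1 FPKM in Nor. Of 24 bile acid genes, 21 fell and 2 rose between H3D and Nor (median -1.36), 14 fell in the H3D step (9 and 8 without NCD replicates 1 and 2) and 6 in the DEN step (0 without NCD replicate 1, NCD replicate 2 or Nor replicate 1, 3 without H2D replicate 2 and 1 with equal FPKM sums). Cyp7a1, the rate-limiting enzyme of bile acid synthesis, was an added fall, at 8.19 and 12.3 FPKM in H3D, 45.2 and 29.7 FPKM in NCD, and 58.6 and 50.0 FPKM in Nor (log2 change -2.37 ± 0.32, adjusted p = 0.000676). Cyp27a1, the sterol 27-hydroxylase of the alternative pathway, was deepened, at 45 and 56.6 FPKM in H3D, 139.8 and 158 FPKM in NCD, and 242 and 294 FPKM in Nor.

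Most genes of tumours and of the fetal liver were already higher in NCD than in Nor. Of 17 tested, 16 rose between H3D and Nor (median log2 change 4.82) and 14 rose in the DEN step. The H3D step raised 4 and lowered 1 (median 0.55), or 7 and 1 at an unadjusted p below 0.05 in limma. By class 9 were kept, 4 deepened, 2 stepwise and 1 reversed. Of all genes that DEN moved, 57.4% were kept, and a kept gene only lacks a call in the H3D step. The list summed to 4488 and 3961 FPKM in H3D, and 957 and 1288 FPKM in NCD. Of the 17, 9 were under 1 FPKM in both Nor pools. Gpc3 (chrX:52272426-52613974), an oncofetal heparan sulfate proteoglycan, measured 81.7 and 26 FPKM in H3D, 53.5 and 72.8 FPKM in NCD, and 0.110 and 0.149 FPKM in Nor. Akr1c18, a progesterone-metabolising reductase, measured 180.3 and 111 FPKM in H3D, 103 and 101 FPKM in NCD, and 0.0851 and 0.115 FPKM in Nor. Ly6d, a GPI-anchored surface protein, measured 309 and 167 FPKM in H3D, 129 and 147 FPKM in NCD, and 0.444 and 1.03 FPKM in Nor. The H3D and NCD pools overlapped in Gpc3, while in Akr1c18 and Ly6d both H3D pools lay above both NCD pools without a call. In these 3 genes both groups lay far above Nor. Spink1, a trypsin inhibitor, measured 402 and 449.9 FPKM in H3D, 93.4 and 239.7 FPKM in NCD, and 0 and 0 FPKM in Nor, where it was listed at 0 in both pools. Igf2, the fetal growth factor, was not called between H3D and Nor (2.15 and 0.947 FPKM in H3D, 0.638 and 0.476 FPKM in NCD, and 0.101 and 0.300 FPKM in Nor, adjusted p = 0.13).

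Cell cycle genes were higher in H3D than in Nor. Of 23 cell cycle genes tested, 19 rose between H3D and Nor (median log2 change 1.69), 13 in the DEN step and 8 in the H3D step, and 12 of the 23 were under 1 FPKM in both Nor pools. The rises in the DEN step went to 5 and 2 without NCD replicates 1 and 2 and to 3 with quantile scaling. Those in the H3D step went to 4 and 1 without H3D replicates 1 and 2, to 1 and 2 without NCD replicates 1 and 2 and to 13 with equal FPKM sums, while the count between H3D and Nor stayed between 17 and 19 over the leave-one-out fits. Mki67, a protein of dividing cells, measured 6.33 and 7.87 FPKM in H3D, 2.24 and 2.78 FPKM in NCD, and 0.223 and 0.415 FPKM in Nor. Cdk1, the mitotic kinase, measured 5.63 and 7.17 FPKM in H3D, 3.06 and 3.05 FPKM in NCD, and 0.474 and 0.691 FPKM in Nor. Ccnb2, cyclin B2, measured 4.35 and 5.67 FPKM in H3D, 1.000 and 1.32 FPKM in NCD, and 0.112 and 0.284 FPKM in Nor. In each, both H3D pools exceeded both NCD pools. Ccnd1, cyclin D1 of the first gap phase, was kept, at 17.9 and 13.7 FPKM in H3D, 16.3 and 24.2 FPKM in NCD, and 8.47 and 4.22 FPKM in Nor, with overlapping H3D and NCD pools, and its difference between H3D and Nor was not called without H3D replicate 1, H3D replicate 2 or Nor replicate 2.

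Interferon-stimulated and antigen presentation genes were higher in H3D than in Nor. Of 30 interferon-stimulated genes tested, 27 rose between H3D and Nor (median 1.13), 23 rose in the DEN step and 4 in the H3D step, and 19 were kept. The rises in the DEN step went to 7 and 8 without NCD replicates 1 and 2 and to 14 without Nor replicate 1 or with quantile scaling. The H3D step gave 1 risen and 5 fallen without H3D replicate 1, 2 and 0 risen without NCD replicates 1 and 2, 1 risen without either H2D replicate, 2 risen without either H1D replicate and 9 risen with equal FPKM sums. Zbp1, a sensor of Z-form nucleic acid, measured 18.4 and 14.9 FPKM in H3D, 12.4 and 10.0 FPKM in NCD, and 3.67 and 3.54 FPKM in Nor, and was 1 of 4 deepened. Ifi27l2a, another interferon-induced gene, was kept and measured 39.8 and 43.7 FPKM in H3D, 36.1 and 21.6 FPKM in NCD, and 8.81 and 10.2 FPKM in Nor. Of 18 antigen presentation genes, 16 rose between H3D and Nor (median 0.92), 10 in the DEN step (2, 1 and 3 without NCD replicate 1, NCD replicate 2 and Nor replicate 1) and 0 in the H3D step by limma's adjusted p (1 at an unadjusted p below 0.05, and 2 by adjusted p with equal FPKM sums). Tap1, a peptide transporter, measured 12.4 and 8.21 FPKM in H3D, 10.2 and 11.6 FPKM in NCD, and 4.60 and 4.93 FPKM in Nor. The missing call for the H3D step does not show that these levels were equal.

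Of 22 p53 targets, 10 rose and 2 fell between H3D and Nor (median 0.54), and 5 were kept. With equal FPKM sums 16 rose. Phlda3, a p53-induced inhibitor of Akt, measured 5.79 and 3.56 FPKM in H3D, 4.23 and 4.44 FPKM in NCD, and 0.488 and 0.464 FPKM in Nor. Btg2, an antiproliferative p53 target, was deepened, at 63.8 and 54.5 FPKM in H3D, 29.3 and 27.5 FPKM in NCD, and 7.01 and 10.8 FPKM in Nor. Psat1 and Phgdh, enzymes of serine synthesis and targets of ATF4, were kept, with Psat1 at 19.3 and 11.1 FPKM in H3D, 9.12 and 7.55 FPKM in NCD, and 0.204 and 0.264 FPKM in Nor. NRF2 targets, the antioxidant and detoxifying genes, were divided in H3D. Of 26 tested, 9 rose in the DEN step (3, 4 and 5 without NCD replicate 1, NCD replicate 2 and Nor replicate 1), 1 rose and 7 fell in the H3D step, and 11 rose and 9 fell between H3D and Nor. Srxn1, sulfiredoxin, was deepened, at 67.5 and 57.6 FPKM in H3D, 38.8 and 36.9 FPKM in NCD, and 10.9 and 11.6 FPKM in Nor. Gsta3, a glutathione transferase, was an added fall, at 324 and 297 FPKM in H3D, 1141 and 1069 FPKM in NCD, and 1334 and 1871 FPKM in Nor, and Me1, malic enzyme, another, at 14.2 and 20.4 FPKM in H3D, 104 and 84.9 FPKM in NCD, and 92.6 and 122 FPKM in Nor. Each of these 3 genes had the H3D pools apart from the NCD and Nor pools.

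Few DEN effects were reversed. Among the 25 reversed genes, 18 had been raised and 7 lowered by DEN. The H3D mean stayed on the NCD side of Nor in 15 and lay beyond Nor in 10, and 6 were called between H3D and Nor, 3 on the NCD side and 3 on the other. Afp (chr5:90490714-90508907), alpha-fetoprotein, measured 16.9 and 7.39 FPKM in H3D, 25.6 and 38.7 FPKM in NCD, and 0.358 and 0.162 FPKM in Nor. It was lower in H3D than in NCD (-1.45 ± 0.38, adjusted p = 0.0407) and higher in H3D than in Nor (3.96 ± 0.38, adjusted p = 0.000151). The fall against NCD was lost in 5 of the 10 leave-one-out fits and with equal FPKM sums or quantile scaling among other settings. Vil1, Krt23, Krt20 and Adgrv1 were also lower in H3D than in NCD. Vil1, the microvillus protein villin, measured 0.434 and 0.121 FPKM in H3D, 6.57 and 3.02 FPKM in NCD, and 0.0251 and 0.0255 FPKM in Nor. Krt23, a keratin of ductular and injured hepatocytes, measured 0.687 and 0.378 FPKM in H3D, 2.68 and 5.58 FPKM in NCD, and 0.522 and 0.446 FPKM in Nor. Krt20, an intestinal keratin, was listed at 0 in both Nor pools and measured 0.891 and 0.105 FPKM in H3D, 6.03 and 6.32 FPKM in NCD, and 0 and 0 FPKM in Nor. Adgrv1, a large adhesion receptor, measured 1.16 and 1.51 FPKM in H3D, 17.2 and 7.40 FPKM in NCD, and 1.56 and 1.64 FPKM in Nor. The H3D pools of Krt23 straddled the range of the Nor pools, those of Adgrv1 lay under them, and those of Vil1 and Krt20 lay between Nor and NCD. Among the H3D, NCD and Nor pools, Vil1, Krt23, Krt20 and, below, Pnpla5 reached 1 FPKM only in NCD. They could thus pass the filter through NCD alone, and both steps share the NCD pools. Their reversal may follow in part from this.

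Some genes of lipid synthesis were higher in NCD than in Nor and lower again in H3D. They were few, since 2 of 20 fatty acid synthesis genes and 1 of 24 cholesterol genes tested were reversed. Calls of Acly, Gpam and Sc5d under other settings are not given here. Acly, which makes cytosolic acetyl-CoA, measured 71.5 and 58.2 FPKM in H3D, 144 and 113 FPKM in NCD, and 87.1 and 73.6 FPKM in Nor. Gpam, the first enzyme of triglyceride synthesis, measured 62.6 and 49.9 FPKM in H3D, 117 and 82.8 FPKM in NCD, and 47.9 and 52.6 FPKM in Nor. Sc5d, a sterol desaturase, measured 243 and 199.6 FPKM in H3D, 372 and 324 FPKM in NCD, and 242 and 248 FPKM in Nor. The 3 genes were reversed, with H3D and Nor not called apart (adjusted p = 0.129, 0.493 and 0.32), and were picked from the reversed class after their values were seen. Pnpla5, a lipase-like protein of lipid droplets, measured 0.539 and 0.466 FPKM in H3D, 2.87 and 1.92 FPKM in NCD, and 0 and 0.0254 FPKM in Nor, and its difference between H3D and Nor was not called without either H3D pool or either Nor pool. Of 20 fatty acid synthesis genes, 3 rose in the DEN step, 8 fell in the H3D step (5 without H3D replicate 1, 4 and 5 without NCD replicates 1 and 2), and 2 rose and 7 fell between H3D and Nor (median -0.44, and -0.02 with equal FPKM sums). Of 24 cholesterol genes, 8 rose in the DEN step, 4 fell in the H3D step and 7 rose and 3 fell between H3D and Nor (median 0.17). Without H3D replicate 1 the list turned to 4 risen and 5 fallen between H3D and Nor (median -0.21) with 14 fallen in the H3D step, and without H3D replicate 2 it gave 12 risen and 2 fallen. The rises in the DEN step went to 13 without either H3D replicate or with equal FPKM sums, to 1 without either NCD replicate, to 3 and 5 without Nor replicates 1 and 2 and to 5 without either H2D replicate. Fasn, fatty acid synthase, varied between pools of a group and was not called (74 and 62.5 FPKM in H3D, 185 and 94.6 FPKM in NCD, and 105 and 60.4 FPKM in Nor, adjusted p = 0.608). Scd1, the stearoyl-CoA desaturase, lay at 904 and 1689 FPKM in H3D, 3696 and 2706 FPKM in NCD, and 1769 and 3612 FPKM in Nor, with an adjusted p of 0.0569. The cholesterol list also varied within H3D, whose pools summed to 1935 and 1246 FPKM. Sqle, squalene epoxidase, was kept, at 73.9 and 48.3 FPKM in H3D, 50.6 and 43.1 FPKM in NCD, and 22.9 and 13.3 FPKM in Nor, with replicate 1 the higher H3D pool.

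The other side of the reversed class had genes lowered by DEN and raised by the H3D step. Fkbp5 (chr17:28398753-28486149), a glucocorticoid-induced co-chaperone, measured 37.7 and 31.8 FPKM in H3D, 12.6 and 13.2 FPKM in NCD, and 24.7 and 22.9 FPKM in Nor. H3D exceeded both NCD (1.39 ± 0.11, adjusted p = 0.000383) and Nor (0.53 ± 0.11, adjusted p = 0.00472). Enho, which encodes the peptide adropin, measured 21.7 and 20.5 FPKM in H3D, 6.79 and 7.41 FPKM in NCD, and 17.6 and 11.1 FPKM in Nor, and its difference between H3D and Nor was not called in 7 of the 10 leave-one-out fits. Junb, an immediate early transcription factor, measured 35.7 and 29.8 FPKM in H3D, 18.3 and 19.9 FPKM in NCD, and 26.2 and 31.3 FPKM in Nor, and its DEN step was not called in 3 of the 10 leave-one-out fits. Il1r1, the interleukin-1 receptor, measured 15.3 and 21.4 FPKM in H3D, 6.20 and 6.77 FPKM in NCD, and 18.2 and 9.66 FPKM in Nor, and its DEN step (adjusted p = 0.0481) was not called in 9 of the 10. Of 15 glucocorticoid-responsive genes, 6 rose and 6 fell between H3D and Nor (6 and 5 with equal FPKM sums). Tsc22d3, a glucocorticoid-induced leucine zipper protein, was deepened downward, at 30.2 and 26.6 FPKM in H3D, 35.7 and 36.3 FPKM in NCD, and 79.4 and 78.9 FPKM in Nor, and Tat, tyrosine aminotransferase, was kept downward, at 263 and 294 FPKM in H3D, 417 and 356 FPKM in NCD, and 620.3 and 842 FPKM in Nor. The reversed count itself moved between 6 (without NCD replicate 1) and 66 (without Nor replicate 2) when single pools were left out, with 13 without NCD replicate 2, 14 without H3D replicate 2 and 39 without H3D replicate 1.

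**Figure D4:**
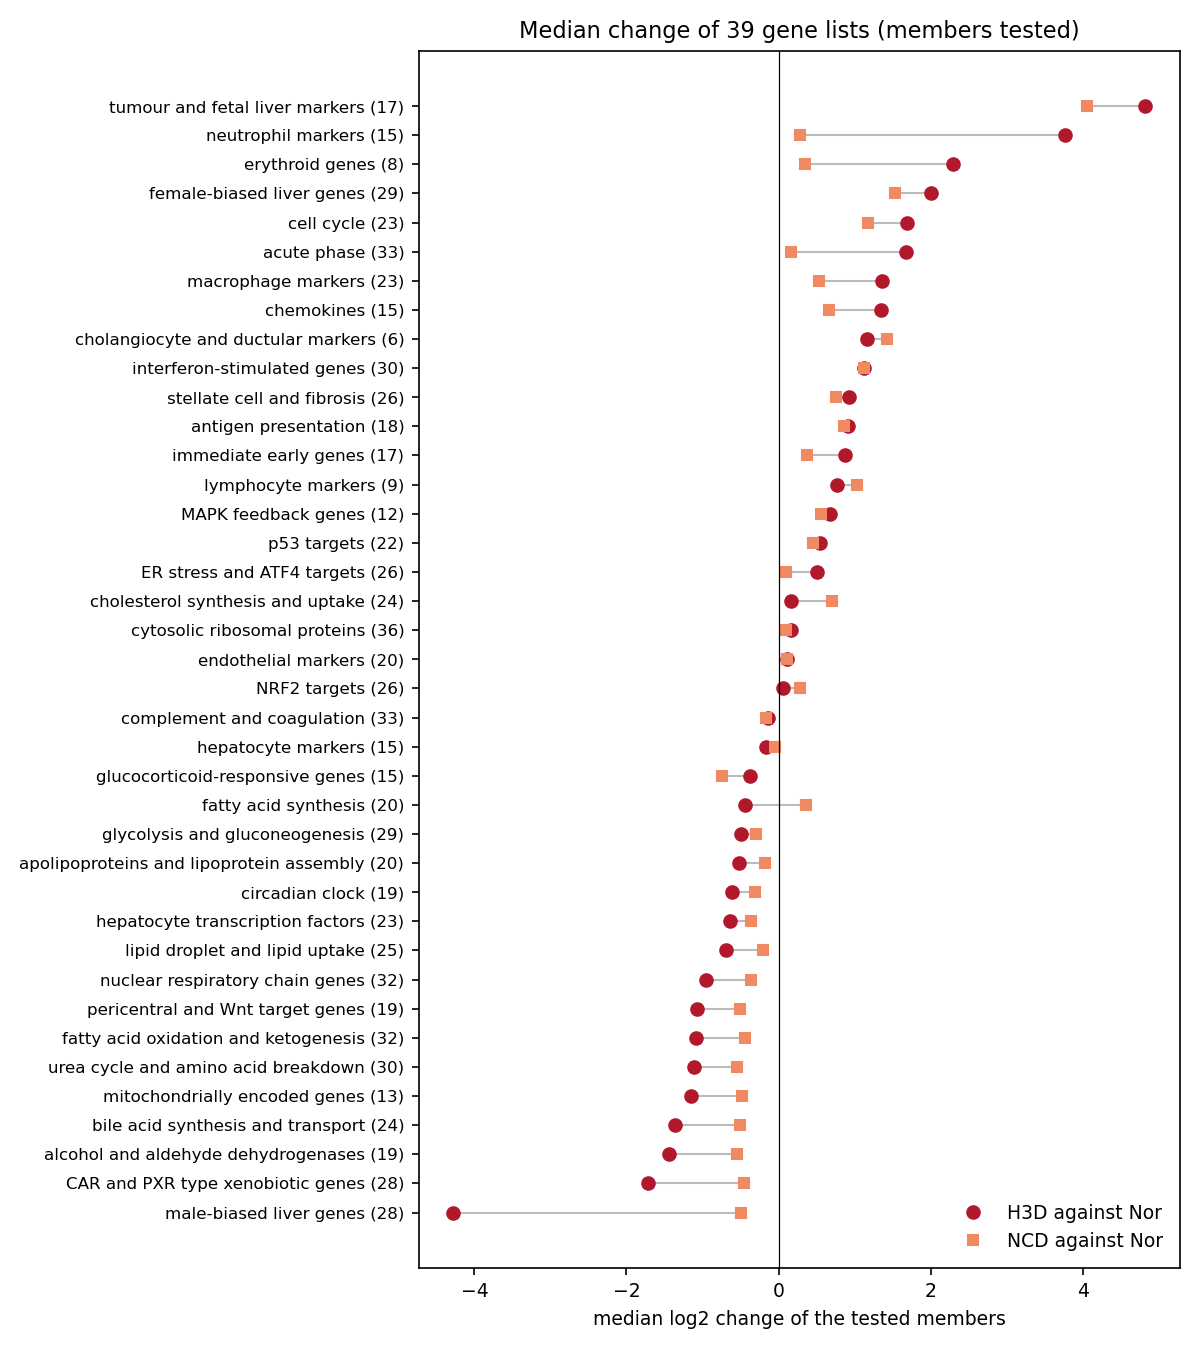
Median log2 change of the tested members (horizontal axis) of 39 gene lists (vertical axis, with the number tested) for H3D against Nor (circles) and NCD against Nor (squares), joined by a line. The lists with the longest lines are male-biased genes (-4.28 for H3D), neutrophil markers (3.77), erythroid genes (2.30), acute phase and CAR and PXR type genes.

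Markers of other liver cells moved with these groups. Of 23 macrophage markers tested, 18 rose between H3D and Nor (median 1.36), 3 in the DEN step and 8 in the H3D step (4, 3 and 3 without H3D replicate 2, NCD replicate 1 and NCD replicate 2, and 15 with equal FPKM sums), and the list summed to 815 and 1180.5 FPKM in H3D, 625 and 512 FPKM in NCD, and 309.8 and 423 FPKM in Nor. Trem2, a lipid receptor of macrophages in diseased liver, measured 2.57 and 3.15 FPKM in H3D, 0.916 and 0.768 FPKM in NCD, and 0.790 and 0.524 FPKM in Nor, and Ccr2, the receptor of monocyte recruitment, 4.56 and 5.38 FPKM in H3D, 1.53 and 1.60 FPKM in NCD, and 0.447 and 0.658 FPKM in Nor. Clec4f and Timd4, markers of resident Kupffer cells picked after their values were seen, were not called. Clec4f measured 27.2 and 46.8 FPKM in H3D, 39.6 and 33 FPKM in NCD, and 31.6 and 41.6 FPKM in Nor, and Timd4 0.841 and 4.48 FPKM in H3D, 3.83 and 3.09 FPKM in NCD, and 2.53 and 3.36 FPKM in Nor. The list also holds the resident markers Vsig4, Marco, Cd5l and Cd163, so Clec4f and Timd4 do not stand for all of them. With 18 of the 23 markers risen, those others cannot all have lacked a call between H3D and Nor. Of 26 stellate cell and fibrosis genes, 15 rose and 1 fell between H3D and Nor, 11 rose in the DEN step (3, 2 and 3 without NCD replicate 1, NCD replicate 2 and Nor replicate 1) and 1 in the H3D step, with sums of 231 and 286 FPKM in H3D, 239.8 and 242 FPKM in NCD, and 159 and 197 FPKM in Nor. Acta2, smooth muscle actin, measured 3.60 and 5.44 FPKM in H3D, 3.02 and 4.02 FPKM in NCD, and 0.519 and 0.886 FPKM in Nor, and Timp1, an inhibitor of matrix proteases, was deepened, at 4.27 and 4.13 FPKM in H3D, 0.738 and 1.40 FPKM in NCD, and 0 and 0.125 FPKM in Nor.

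Of 12 cholangiocyte and ductular markers, 6 were tested and 4 rose between H3D and Nor. Of the 6, 3 were under 1 FPKM in both Nor pools and passed the filter through other groups. Spp1, osteopontin, measured 448 and 322 FPKM in H3D, 256 and 204 FPKM in NCD, and 11.2 and 16.4 FPKM in Nor. That list summed to 539 and 387 FPKM in H3D, 373 and 326 FPKM in NCD, and 18.2 and 26.7 FPKM in Nor. Of 18 lymphocyte markers, 9 were tested and 4 rose between H3D and Nor. The tested members summed to 40.0 and 20.6 FPKM in H3D, 24.5 and 30.3 FPKM in NCD, and 3.66 and 7.27 FPKM in Nor. Of the 9, 8 were under 1 FPKM in both Nor pools and passed the filter through other groups, so a fall could hardly be seen. Endothelial markers were mixed, with 7 of 20 risen and 5 fallen (12 and 2 with equal FPKM sums, and 4 risen without H3D replicate 2 or Nor replicate 1). Over all genes 22.2% rose and 24.9% fell, so the share of endothelial falls was near that of all genes. Vwf, von Willebrand factor, measured 4.14 and 8.91 FPKM in H3D, 0.813 and 0.873 FPKM in NCD, and 0.622 and 0.535 FPKM in Nor, and the secreted Wnt and BMP pathway signals Wnt2, Rspo3 and Bmp2 fell between H3D and Nor on the deposited scale, with Bmp2 at 3.52 and 3.47 FPKM in H3D, 5.78 and 6.56 FPKM in NCD, and 6.29 and 8.91 FPKM in Nor. The H3D step of Bmp2 was not called with equal FPKM sums. Wnt2 and Rspo3 were picked after their values were seen, from a list in which 7 genes rose. Since 2 list members fell with equal FPKM sums, Wnt2, Rspo3 and Bmp2 did not all fall between H3D and Nor on that scale. Of 8 erythroid genes, 6 rose and 2 fell between H3D and Nor, with 0 called in the DEN step by limma (1, lower, at an unadjusted p below 0.05). Hbb-bt, a beta globin with near-identical copies, measured 156 and 344 FPKM in H3D, 68.6 and 58.4 FPKM in NCD, and 39.5 and 48.2 FPKM in Nor, and the list summed to 1369 and 3983 FPKM in H3D, 760.4 and 636 FPKM in NCD, and 516 and 553 FPKM in Nor, with H3D replicate 2 highest. The part of these cells in the changes of other genes was not tested.

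Some lists depended on the scale of the libraries. On the deposited scale 22.2% of all genes rose and 24.9% fell between H3D and Nor. Some counts below, such as those of complement and coagulation genes, lie near these shares. Of 36 cytosolic ribosomal protein genes, 4 rose and 1 fell on the deposited scale (median log2 change 0.17), and 35 rose and 0 fell with equal FPKM sums (median 0.60). Without H3D replicates 1 and 2 the rises went to 11 and 0, and without either Nor replicate to 1. Of 33 complement and coagulation genes, 7 rose and 11 fell (median -0.14), and 16 rose and 7 fell with equal sums (median 0.29). Of 15 hepatocyte markers, 5 rose and 6 fell (median -0.16), and 7 rose and 5 fell with equal sums (median 0.27). Trf, transferrin, rose on both scales, at 20169.5 and 17665 FPKM in H3D, 10817 and 9983 FPKM in NCD, and 5932 and 6123 FPKM in Nor, and Apoa2, an apolipoprotein of HDL, fell on both, at 6791 and 7362 FPKM in H3D, 14566 and 14565 FPKM in NCD, and 18424 and 22393 FPKM in Nor. Of 23 hepatocyte transcription factors, 14 fell and 0 rose (median -0.63), and 7 fell and 2 rose with equal sums. Without either H3D replicate 9 fell. Glycolysis and gluconeogenesis genes moved too, with 8 risen and 14 fallen of 29 (11 and 8 with equal sums, 4 and 5 risen without H3D replicate 2 and Nor replicate 1, and 9 fallen without H3D replicate 1), and apolipoprotein genes, with 4 risen and 10 fallen of 20 (5 and 6 with equal sums). Immediate early genes (10 of 17 risen and 2 fallen) and chemokines (10 of 15 risen and 1 fallen) had 12 and 10 risen with equal sums and between 7 and 10 and between 8 and 10 risen when 1 library was left out. MAPK feedback genes gave 6 of 12 risen and 1 fallen, 11 risen with equal sums and 2 without H3D replicate 1. ER stress and ATF4 targets gave 9 of 26 risen and 1 fallen (median 0.50) and 16 risen with equal sums. Without Nor replicate 1 that list gave 17 risen and 0 fallen (median 0.89), and without Nor replicate 2 it gave 10 risen and 5 fallen (median -0.07), so its median changed sign with 1 pool. Of 19 circadian clock genes 6 fell, a share near the 24.9% of all genes, with 4 fallen and 1 risen with equal sums and 13 fallen and 4 risen without Nor replicate 2. Of 25 lipid droplet and uptake genes, 6 rose and 12 fell (8 and 8 with equal sums).

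H3D was also set against the mean of H1D and H2D, which shared DEN and the high-fat diet with it. Here 83 genes (0.718%) were called, 8 higher (0.0692%) and 75 lower (0.649%) in H3D, a count that fell to 10 without H3D replicate 1. Major urinary proteins led the falls. Mup11 measured 13.7 and 9.60 FPKM in H3D, 291 and 246 FPKM in H1D, and 881 and 843 FPKM in H2D, a log2 difference of -5.32 ± 0.48 (adjusted p = 0.00373). Cxcl14, a chemokine, was among the 8 higher genes, at 20.2 and 27 FPKM in H3D, 1.57 and 3.61 FPKM in H1D, and 16.1 and 11.7 FPKM in H2D (1.89 ± 0.27, adjusted p = 0.0238). Both H3D pools lay above all H1D and H2D pools, and the H1D pools lay far under the H2D pools.

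Of 2030 long noncoding and uncertain transcripts, 1493 were tested and 375 (25.1%) were called between H3D and Nor, 142 higher and 233 lower. The DEN step called 26 (1.74%) and the H3D step 93 (6.23%). H19, a maternally expressed fetal transcript next to Igf2, measured 71.2 and 38 FPKM in H3D, 46.6 and 19.7 FPKM in NCD, and 0.0177 and 0.0541 FPKM in Nor (log2 change 6.62 ± 0.49, adjusted p = 0.000155), with H3D and NCD overlapping. Gm10680, annotated as antisense, measured 1554 and 2333 FPKM in H3D, 1047 and 839 FPKM in NCD, and 49.7 and 42.7 FPKM in Nor, and without a statement on strand in the counting its reads cannot be told apart from those of its partner gene. TUCP_000223, a transcript of uncertain coding potential, measured 35.5 and 38.1 FPKM in H3D, 10.8 and 11 FPKM in NCD, and 0.440 and 0.774 FPKM in Nor, and TUCP_000096 had a log2 change of 4.07 ± 0.39. In these 4 both H3D pools lay far above both Nor pools. Among the falls, Gm13775 measured 0.567 and 2.95 FPKM in H3D, 51.4 and 41.2 FPKM in NCD, and 128 and 68.8 FPKM in Nor, and TUCP_000163 0.552 and 0.257 FPKM in H3D, 16.3 and 16.2 FPKM in NCD, and 18.2 and 25.4 FPKM in Nor. Further falls were TUCP_000301 (log2 change -4.27 ± 0.25) and LNC_000238 (-3.96 ± 0.29). In these 4 falls the H3D step was called and the DEN step was not. The listed transcripts of Malat1, Neat1 and Meg3 were not called between H3D and Nor.

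Small RNA was measured in 1 library per group, with 6864962 miRNA reads in H3D, 7162150 in NCD and 8097887 in Nor, so differences have no replicate check and no p-value. Levels are RPM (reads of a miRNA after scaling each library to the same sum over listed miRNAs), and 95% Poisson intervals cover counting error only. The mature sequences that the small RNA results turn on are shown with the seed, bases 2 to 8, which pairs with target transcripts, in capitals. They are from RefSeq on GRCm38.p6, 5′ to 3′.
miR-146b-5p, chr19:46342790-46342811, plus strand: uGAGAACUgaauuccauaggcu
miR-155-5p, chr16:84714143-84714165, plus strand: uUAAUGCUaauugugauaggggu
miR-34a-5p, chr4:150068473-150068494, plus strand: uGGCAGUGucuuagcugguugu
miR-182-5p, chr6:30165962-30165986, minus strand: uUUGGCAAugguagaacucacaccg
miR-183-5p, chr6:30169711-30169732, minus strand: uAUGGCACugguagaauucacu
miR-455-3p, chr4:63256904-63256924, plus strand: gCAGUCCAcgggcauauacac
miR-881-3p, chrX:66801954-66801975, minus strand: aACUGUGUcuuuucugaauaga
miR-379-5p, chr12:109709065-109709085, plus strand: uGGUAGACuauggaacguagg
miR-411-5p, chr12:109710190-109710210, plus strand: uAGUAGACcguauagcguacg
None of the 9 shares its seed with another of them. Among the counted miRNAs matched to RefSeq, miR-146a-5p has the seed of miR-146b-5p.

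Of 310 miRNAs with at least 100 reads over H3D, NCD and Nor, 80 (25.8%) differed by a log2 ratio of (RPM + 0.5) of 1 or more in size between H3D and Nor, 55 higher and 25 lower in H3D. Between NCD and Nor 58 did (18.7%), all of them higher, and between H3D and NCD 62 did (20.0%), 6 higher and 56 lower. With TMM factors, which were 0.933 for H3D, 1.13 for NCD and 0.826 for Nor, the splits were 48 higher and 38 lower between H3D and Nor, 44 higher and 10 lower between NCD and Nor, and 11 higher and 47 lower between H3D and NCD. miR-146b-5p, an inhibitor of Toll-like receptor signalling, was the largest rise, at 23264 RPM in H3D (159706 reads), 25979 RPM in NCD (186063 reads) and 109 RPM in Nor (883 reads). miR-155-5p, an inflammatory miRNA, stood at 40.9 RPM in H3D (281 reads), 53.2 RPM in NCD (381 reads) and 6.42 RPM in Nor (52 reads). miR-34a-5p, a p53 target, stood at 167 RPM in H3D (1149 reads), 143 RPM in NCD (1023 reads) and 32.2 RPM in Nor (261 reads). In all 3 the H3D and NCD libraries stood above Nor and closer to each other than to it. The interval of miR-146b-5p was 23150.0 to 23378 RPM in H3D and 102 to 116 RPM in Nor. miR-182-5p and miR-183-5p, of 1 cluster on chromosome 6, were 3.87 and 4.46 times as high in H3D as in Nor, with miR-182-5p at 851 RPM in H3D (5839 reads), 629 RPM in NCD (4507 reads) and 219.7 RPM in Nor (1779 reads). miR-21a-5p, abundant in tumours, stood at 258959 RPM in H3D (1777741 reads), 157902 RPM in NCD (1130918 reads) and 100975 RPM in Nor (817681 reads). miR-122-5p, the main hepatocyte miRNA, stood at 176509 RPM in H3D (1211729 reads), 220992 RPM in NCD (1582777 reads) and 259747 RPM in Nor (2103400 reads), 0.680 times the Nor level in H3D. miR-27a-3p stood at 1015 RPM in H3D (6966 reads), 798 RPM in NCD (5717 reads) and 597 RPM in Nor (4836 reads), a log2 ratio of 0.76 that is under the threshold of 1.

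A cluster on the X chromosome held 4 of the 5 largest falls of the small RNA comparison, and miR-1948-5p was the fifth, at 30.7 RPM in H3D (211 reads), 143 RPM in NCD (1026 reads) and 257 RPM in Nor (2081 reads). miR-881-3p stood at 6.12 RPM in H3D (42 reads), 45.4 RPM in NCD (325 reads) and 55.6 RPM in Nor (450 reads), with intervals of 4.41 to 8.27 RPM in H3D and 50.6 to 60.9 RPM in Nor. Its neighbours miR-871-3p (2 reads in H3D, 47 in NCD and 70 in Nor), miR-465b-5p (1, 45 and 56 reads) and miR-741-3p (6, 80 and 83 reads) were lower in H3D too. The 4 members with 100 reads, all between 66776760 and 66839121 on the X chromosome, summed to 7.43 RPM in H3D, 69.4 in NCD and 81.4 in Nor, and to 19.5 in H1D and 58.8 in H2D. RefSeq places 34 mature miRNAs in that stretch, and these 4 passed the floor of 100 reads through NCD and Nor. miR-455-3p, picked after its values were seen, stood at 30.9 RPM in H3D (212 reads), 189 RPM in NCD (1355 reads) and 243 RPM in Nor (1967 reads), and its partner arm miR-455-5p at 162 RPM in H3D (1110 reads), 467 RPM in NCD (3346 reads) and 831 RPM in Nor (6727 reads). Both arms were lowest in H3D. miR-203-3p, also picked after its values were seen, stood at 847 RPM in H3D (5815 reads), 2810.2 RPM in NCD (20127 reads) and 2777 RPM in Nor (22488 reads), and miR-210-3p, a miRNA that hypoxia induces, at 66.3 RPM in H3D (455 reads), 14.9 RPM in NCD (107 reads) and 15.7 RPM in Nor (127 reads). In miR-203-3p and miR-210-3p the NCD and Nor libraries lay close together and H3D apart.

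Another cluster was highest in NCD, a pattern noticed after the values were seen. In it 34 miRNAs with 100 reads lay between 109544588 and 109747949 on chromosome 12, in the imprinted region that also holds Meg3. All 34 were at least 1 log2 unit higher in NCD than in Nor (median 3.92) and at least 1 lower in H3D than in NCD (median -2.59), and 20 were 1 or more above Nor in H3D (median 1.19). With TMM factors all 34 still met both differences, and 19 were 1 or more above Nor in H3D. Over all 310 miRNAs, 40 were higher in NCD than in both others in this way, 34 of them in this cluster. The floor of 100 reads sums the 3 libraries, so members low in H3D and Nor could pass it through NCD alone. Such a member was miR-433-3p, with 8 reads in H3D, 132 in NCD and 7 in Nor, unlike miR-127-3p, with 597, 10756 and 729. These counts therefore follow in part from the floor. RefSeq places 111 mature miRNAs in this stretch, and those under the floor were not compared. miR-379-5p stood at 211 RPM in H3D (1446 reads), 1035 RPM in NCD (7412 reads) and 65.6 RPM in Nor (531 reads), miR-411-5p at 116 RPM in H3D (793 reads), 559 RPM in NCD (4002 reads) and 39 RPM in Nor (316 reads). The cluster summed to 859 RPM in H3D, 6206 in NCD and 392 in Nor, and to 2663 in H1D and 1663 in H2D. In long RNA, 1 of the 2 tested Meg3 transcripts measured 0.291 and 5.5e-06 FPKM in H3D, 1.07 and 3.65 FPKM in NCD, and 0.778 and 0.0339 FPKM in Nor. It was highest in NCD replicate 2 and the groups were not called apart (adjusted p = 0.0965 for the H3D step).

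**Figure D5:**
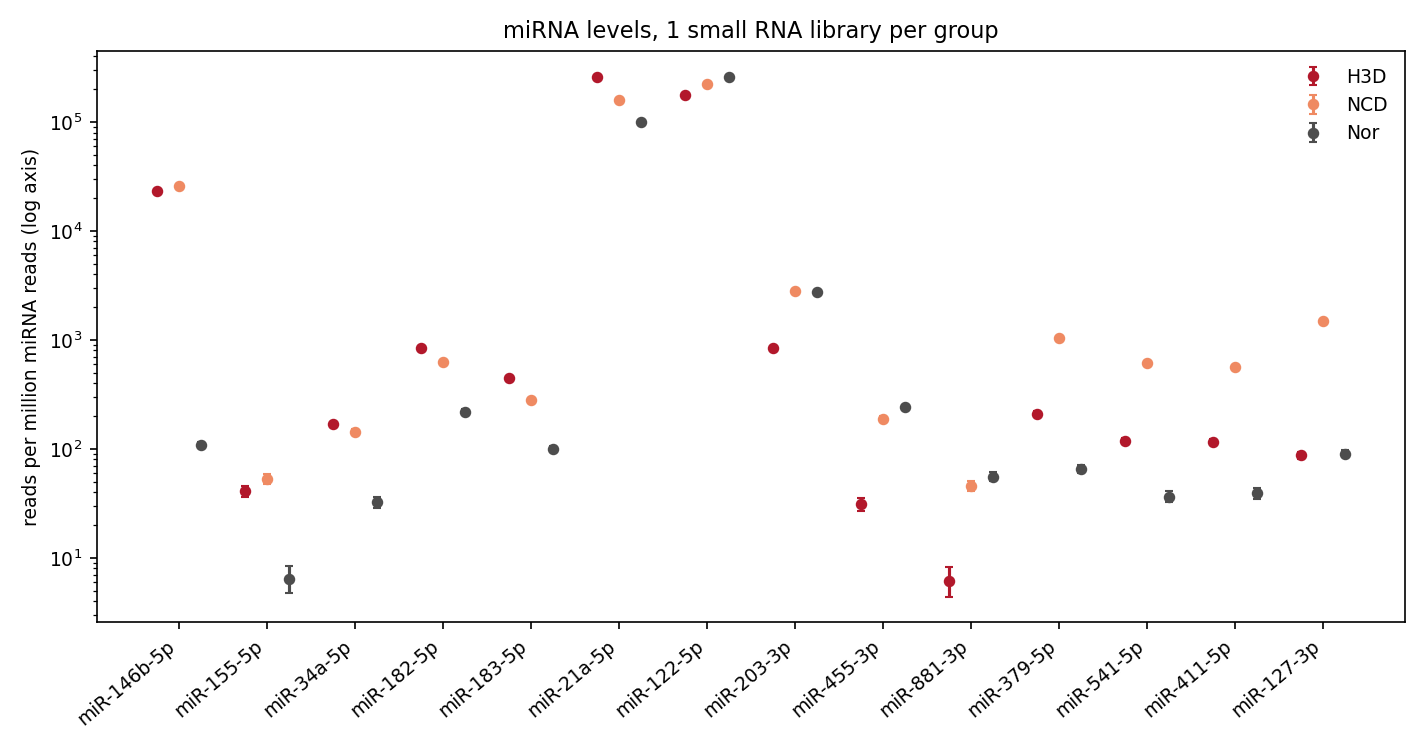
Levels in RPM (vertical log axis) of 14 miRNAs (horizontal axis) in the H3D, NCD and Nor small RNA libraries, with 95% Poisson intervals of the count as bars. The first 5 stand high in H3D and NCD, miR-203-3p, miR-455-3p and miR-881-3p stand low in H3D, and the last 4, of the chromosome 12 cluster, stand highest in NCD.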

How the data were processed

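Long RNA of mouse livers was sequenced in 2 pools per group as 125 nt pairs and small RNA in 1 pool per group as 50 nt single reads, per the labels' protocols. The authors deposited FPKM per transcript for mRNA and 3 tables of noncoding RNA, and a raw count and an RPM value (headed TPM, with no length term) per miRNA. The build GRCm38 and, with no roles given, the tools TopHat2 2.0.9, Bowtie2 2.0.6, GATK, SAMtools 0.1.18, Cuffdiff 2.1.1 and Cufflinks 2.1.1 are named in the submitters' processing notes. The strand setting, annotation release and read totals of long RNA are not given in the sources used here, so only relative depth was estimated.

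From these values, 50660 mRNA transcripts were summed to 21949 genes, of which 11557 passed the filter. Differences were tested in limma 3.58.1 (R 4.3.3) on log2(FPKM + 0.5), which understates changes of low genes, with 1 coefficient for each of 5 groups, a variance trend, two-sided tests and Benjamini-Hochberg adjustment over all genes. Noncoding transcripts with at least 0.5 FPKM in 2 libraries were tested likewise, in 1 stacked table. miRNA counts have no replicates and were not tested, and edgeR 4.0.16 gave TMM factors for an alternative scaling. The labels do not say how animals were divided between the pools of a group, so p-values measure the spread between pools. The procedure was tested on simulated data.

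The comparison, its gene lists and the cell type markers were chosen with earlier results of these data known. Genes named were 22 listed by name, the largest changes per class, the 4 called members of each list with the smallest p, and the largest differences from H1D and H2D, and others are said to be picked after their values were seen. Alternatives were the pseudocount, the filter, quantile or equal-sum scaling, the groups fitted, the variance trend, a replicate block, transcripts in place of genes, and each library left out. Of the named genes, 186 of 190 were placed in RefSeq by symbol, and 268 of the 310 miRNAs with at least 100 reads had a RefSeq sequence.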

Additional observations from a re-analysis of the deposited data

Results flagged for a closer look

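Among the 190 genes named by rule, 29 were called between H3D and the mean of H1D and H2D. The call was a Benjamini-Hochberg adjusted p below 0.05 in limma. H1D and H2D shared DEN and the high-fat diet with H3D and had other mothers. Over all genes tested, 83 of 11557 (0.718%) were called in that comparison. Some of the 190 were named for a large difference in it, so the 29 were in part fixed by the choice. Each of the 3 groups is set against the same Nor pools, so the difference of H3D from H1D and H2D equals the difference between their effects. H1D, H2D and H3D are also separate cohorts, which cannot be told apart from ancestry.

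Male-biased genes and neighbours of the same kind were lowest in H3D. The log2 differences of the major urinary proteins were -5.32 for Mup11, -5.32 for Mup12, -4.56 for Mup1, -4.15 for Mup17, -4.08 for Mup15, -3.98 for Mup7 and -2.59 for Mup10. Single values of this family of near-identical genes are uncertain. Hsd3b5 measured 0.0720 and 0.113 FPKM in H3D, 6.26 and 5.72 FPKM in H1D, and 20.0 and 10.1 FPKM in H2D, a difference of -4.05. Cyp4a12a differed by -3.56, Sult2a8 by -2.95, Slco1a1 by -2.48, Nat8 by -2.03, Cml5, an acetyltransferase-like gene, by -1.98, and Cyp2d9, a steroid hydroxylase, by -1.66.

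Pericentral and metabolic genes were lower as well. Cyp2e1 measured 319 and 357 FPKM in H3D, 1088 and 1752 FPKM in H1D, and 1465 and 1155 FPKM in H2D, a difference of -1.99. Cyp1a2 differed by -1.86, Oat by -1.68, Slc1a2 by -1.40, Lect2, a secreted chemotactic protein, by -0.95, and Glul by -0.89. Acsl1 measured 69.9 and 68.8 FPKM in H3D, 133 and 157 FPKM in H1D, and 127 and 108 FPKM in H2D, a difference of -0.90. Acaa1b differed by -1.41, Apoa5, an apolipoprotein that lowers plasma triglycerides, by -0.86, and Tsc22d3 by -0.63.

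Another 5 genes were higher in H3D. Lcn2 measured 2648 and 2471 FPKM in H3D, 709 and 745 FPKM in H1D, and 1216 and 1803 FPKM in H2D, a difference of 1.30. Cxcl14 differed by 1.89, Serpinb6b, a serine protease inhibitor, by 1.47, and Srxn1 by 0.95. Tekt5, a microtubule protein, differed by 2.02.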

How the results depend on the processing

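Calls between H3D and Nor ranged from 4073 to 5707 over the 10 fits without 1 library each, 5193 with quantile scaling and 6836 with equal FPKM sums, all within 1.5 times the reported 5436. The other counts moved more. Without a filter 48 genes were reversed. With a mean of at least 5 FPKM 14 were reversed, 552 kept and 1662 stepwise. Quantile scaling gave 652 calls for NCD against Nor, 250 deepened and 363 kept. Equal FPKM sums gave 2638 calls for H3D against NCD and 1795 added. With H3D, NCD and Nor fitted alone there were 992 calls for NCD against Nor, 368 deepened and 582 kept. Each transcript tested on its own gave 1012 calls for NCD against Nor. Noncoding calls went to 225 with a mean of at least 1 FPKM. The miRNAs past the threshold went to 32 with a minimum of 1000 reads and to 50 with 5 RPM added. The cause of these shifts was not tested, beyond the fewer or more features that a filter leaves.

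Without 1 library in turn, calls ranged from 258 (without NCD replicate 1) to 2373 for NCD against Nor, from 508 (without NCD replicate 2) to 2177 for H3D against NCD, and from 10 (without H3D replicate 1) to 173 (without H1D replicate 1) for H3D against H1D and H2D. Deepened genes ranged from 39 to 711, reversed from 6 to 66, added from 438 to 1707, kept from 212 to 1472, stepwise from 2211 to 4182 and noncoding calls from 209 to 354. A group left with 1 pool is assumed to vary like the others.

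Replicate numbers did not pair the samples, whose deviations correlated between -0.0533 and 0.225, so the replicate block is given only here, with 5482 calls for H3D against Nor, 1541 for NCD against Nor and 1774 for H3D against NCD. Of the named genes' calls, 162 of 176 between H3D and Nor, 42 of 116 between NCD and Nor and 75 of 132 between H3D and NCD were kept under all gene-level settings that included the gene. Rps2, a ribosomal protein gene, changed sign, at 0.0745 with quantile scaling and 0.0868 with equal sums against -0.35 as deposited. Depth limits low genes, and miRNA ratios have no replicate.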
